A study of Mus musculus with 11 samples.

Results

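The collagen genes were taken as every gene on the array whose symbol has the form Col, a number, a and a number. They comprised 44 genes, measured by 91 of the 46237 probes, out of 22491 genes with a symbol. Collagens are triple helices of alpha chains that cells secrete into the extracellular matrix. Fibrillar collagens (types I, II, III, V, XI and others) form the fibres of connective tissue, and fibroblasts are their main source. Basement membrane collagen (type IV) forms a sheet-like network under epithelia and around vessels, while the remaining types coat fibrils, build filaments or networks, or sit in the cell membrane. By these roles 11 of the genes were fibrillar, 6 encoded basement membrane chains and 27 were of other types.

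RNA came from mouse embryonic fibroblasts labelled p53-/- and TSC2-/-, a background shared by all groups, and was measured on 11 single-colour Illumina bead arrays. TSC2 holds back the growth kinase complex mTORC1, which rapamycin inhibits. The luciferase/ethanol group (2 arrays) received a control siRNA against luciferase and 12 h of ethanol, and the luciferase/rapamycin group (3 arrays) the same siRNA and 20 nM rapamycin for 12 h. The Crebl2/ethanol and Crebl2/rapamycin groups (3 arrays each) received an siRNA against Crebl2, a bZIP protein, with the same 2 treatments. The labels give 3 days of siRNA, whereas the design text gives 2.5 days and names the target Creb2. Neither says how the line was derived or whether replicates were separate cultures, so a p-value here reflects no more than the spread among the deposited samples, which may be technical. Levels are log2 values of the authors' normalized intensities, which still hold the array background near a log2 level of 7, so that changes of dim probes are understated.

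Of the 44 genes, 31 had a probe above background (detection p under 0.05) on at least 2 arrays and were tested among 15908 genes. They were 10 of the 11 fibrillar genes, 5 of the 6 basement membrane genes and 16 of the 27 others. Of these, 22 were above background on all 11 arrays: 6 fibrillar, 4 basement membrane and 12 other genes. The 13 genes that did not pass were Col24a1 (fibrillar), Col4a3 (basement membrane), Col6a4, Col6a5, Col6a6, Col9a3, Col10a1, Col13a1, Col19a1, Col22a1, Col23a1, Col26a1 and Col28a1, each above background on at most 1 array. The tested genes that were not detected everywhere sat close to background. They included Col2a1, the fibrillar collagen of cartilage, detected on 4 arrays, and Col4a4, detected on 2.

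The array median intensity lay between 110.5 and 112.4, and 46.9% to 51.2% of all probes were above background. Of the 8 fibroblast markers 7 passed the detection filter, and Vim (vimentin) lay between 11.65 and 12.34 on the log2 scale. The defining markers Ptprc (leukocytes), Emcn (endothelium), Krt5 (epithelium) and Hapln1, Matn1 and Matn3 (cartilage) were above background on 0 arrays. Other members of those lists did pass the filter: 6 of 7 endothelial, 4 of 6 epithelial, 5 of 8 chondrocyte and 4 of 6 macrophage markers, and also 4 of 5 of smooth muscle. Among them Krt14 lay between 9.71 and 11.14, Krt18 between 9.19 and 10.87 and Sox9 between 9.77 and 11.04. Acta2 (smooth muscle actin) lay between 14.24 and 14.83. The endothelial and macrophage markers tested lay at 7.93 or below, many of them near background. The single Crebl2 probe was close to background, detected on 9 arrays, and did not pass the test for the siRNA (a log2 change of -0.11 in ethanol, adjusted p = 0.657, and -0.04 in rapamycin, adjusted p = 0.957, limma), so the knockdown could not be checked with it. Tsc2 transcript was detected on all 11 arrays, and where its probes lie relative to the deletion is not given in the sources used here.

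The third Crebl2/ethanol array and the 3 Crebl2/rapamycin arrays stood apart from the other 7. They lay on the far side of the leading principal component, which held 73.8% of the variance. No label gives them a batch, and what sets them apart was not tested. For 11 of the 31 collagen genes (35.5%) the 4 arrays lay all above or all below the 7, against 27.4% of all genes tested. Col1a2, Col3a1, Col5a2 and Col8a1 were higher on the 4, and Col12a1, Col18a1, Col1a1, Col4a1, Col4a2, Col6a1 and Col6a2 were lower. The limma fit therefore held 1 term for those 4 arrays. The rapamycin comparison with luciferase siRNA and the siRNA comparison in ethanol then rest on the 7 arrays. With Crebl2 siRNA, rapamycin was set against the third ethanol array alone. The siRNA comparison in rapamycin and the interaction also rest on that 1 array. Its own spread cannot be measured, and the fit assumes that it varies like the arrays of the other groups.

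The upstream sequences of 6 collagen genes are given here because these genes sit in pairs of chains that go into a shared network. Col8a1 and Col8a2 encode the chains of type VIII collagen, a short-chain network collagen, and lie on different chromosomes. Col4a5 with Col4a6, and Col4a1 with Col4a2, are head-to-head gene pairs that encode type IV chains. Each window runs from 250 bases before to 50 bases after the RefSeq start (GRCm38.p6), 5′ to 3′ on the gene's strand. Capitals mark CCAAT or its complement ATTGG, the CCAAT box of many promoters.
Col8a1 (chr16:57754688-57754987, minus strand): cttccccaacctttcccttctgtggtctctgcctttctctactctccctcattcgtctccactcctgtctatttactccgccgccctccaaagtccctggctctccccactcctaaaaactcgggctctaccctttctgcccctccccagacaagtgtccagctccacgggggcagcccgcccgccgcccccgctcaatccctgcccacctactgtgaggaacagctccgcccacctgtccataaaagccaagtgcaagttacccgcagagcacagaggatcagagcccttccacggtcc
Col8a2 (chr4:126286544-126286843, plus strand): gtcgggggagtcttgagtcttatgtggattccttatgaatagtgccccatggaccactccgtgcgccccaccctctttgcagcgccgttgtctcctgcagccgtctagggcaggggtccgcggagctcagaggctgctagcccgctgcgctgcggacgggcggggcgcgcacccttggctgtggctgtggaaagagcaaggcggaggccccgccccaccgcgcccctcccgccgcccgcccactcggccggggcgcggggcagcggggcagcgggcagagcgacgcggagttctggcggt
Col4a5 (chrX:141475169-141475468, plus strand): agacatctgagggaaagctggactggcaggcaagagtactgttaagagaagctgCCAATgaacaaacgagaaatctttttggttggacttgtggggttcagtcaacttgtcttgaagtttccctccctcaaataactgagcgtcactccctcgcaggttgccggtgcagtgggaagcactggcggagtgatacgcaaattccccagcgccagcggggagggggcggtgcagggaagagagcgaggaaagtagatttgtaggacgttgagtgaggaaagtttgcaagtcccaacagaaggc
Col4a6 (chrX:141474027-141474326, minus strand): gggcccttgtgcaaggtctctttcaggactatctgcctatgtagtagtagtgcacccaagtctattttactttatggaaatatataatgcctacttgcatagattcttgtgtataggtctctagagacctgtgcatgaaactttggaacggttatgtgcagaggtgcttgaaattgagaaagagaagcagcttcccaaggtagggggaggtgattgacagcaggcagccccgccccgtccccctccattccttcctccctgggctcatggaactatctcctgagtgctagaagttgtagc
Col4a1 (chr8:11312777-11313076, minus strand): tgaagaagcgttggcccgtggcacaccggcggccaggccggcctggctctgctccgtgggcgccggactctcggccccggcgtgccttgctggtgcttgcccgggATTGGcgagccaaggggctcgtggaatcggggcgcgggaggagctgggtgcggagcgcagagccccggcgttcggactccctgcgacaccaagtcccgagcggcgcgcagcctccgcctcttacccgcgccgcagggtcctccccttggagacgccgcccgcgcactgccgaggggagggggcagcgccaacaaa
Col4a2 (chr8:11312555-11312854, plus strand): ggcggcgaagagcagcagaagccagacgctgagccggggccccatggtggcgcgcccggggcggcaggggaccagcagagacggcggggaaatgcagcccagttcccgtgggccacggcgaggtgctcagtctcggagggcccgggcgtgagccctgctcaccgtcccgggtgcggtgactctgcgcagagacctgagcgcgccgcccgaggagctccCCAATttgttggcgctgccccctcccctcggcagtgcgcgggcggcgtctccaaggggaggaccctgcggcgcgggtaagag

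The windows of Col4a1 and Col4a2 overlap by 78 bases, whereas 842 bases separate those of Col4a6 and Col4a5. CCAAT was found on either strand once in the windows of Col4a5, Col4a1 and Col4a2, and not in those of Col4a6, Col8a1 and Col8a2. Over all 32851 windows 37.4% held it, as did 13 of the 38 windows (34.2%) of the 35 collagen genes that matched. G and C made up 74.0% of the Col4a1 window and 73.7% of the Col4a2 window, against 52.7% for Col4a5 and 48.3% for Col4a6. The Col8a1 and Col8a2 windows held 60.3% and 71.7%, and the median of all windows was 52.7%.

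Rapamycin with luciferase siRNA raised 13 of the 31 collagen genes tested and lowered 0 (41.9%, limma, adjusted p under 0.05). Of all genes tested, 22.2% passed, 12.2% higher and 10% lower. At an unadjusted p under 0.05, 16 collagen genes were higher and 0 lower, counts that cannot be set against those adjusted shares. The median change was 0.216 on the log2 scale over the collagen genes and 0.0166 over all genes. Of the fibrillar genes 3 of 10 rose (Col1a1, Col3a1 and Col27a1), of the basement membrane genes 2 of 5 (Col4a5 and Col4a6) and of the others 8 of 16. The median changes were 0.234, 0.164 and 0.213 in that order. The count was 8 without the first luciferase/ethanol array, when Col1a1, Col6a2, Col12a1, Col16a1 and Col27a1 no longer passed. It was also 8 without the second, when Col1a1, Col4a6, Col6a1, Col12a1 and Col15a1 no longer did. It was 5 without the term for the 4 arrays (10.1% of all genes), when Col15a1, Col20a1, Col4a5, Col4a6 and Col8a1 passed. In a bulk culture, more cells of a kind and more RNA per cell cannot be told apart.

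**Figure D1:**
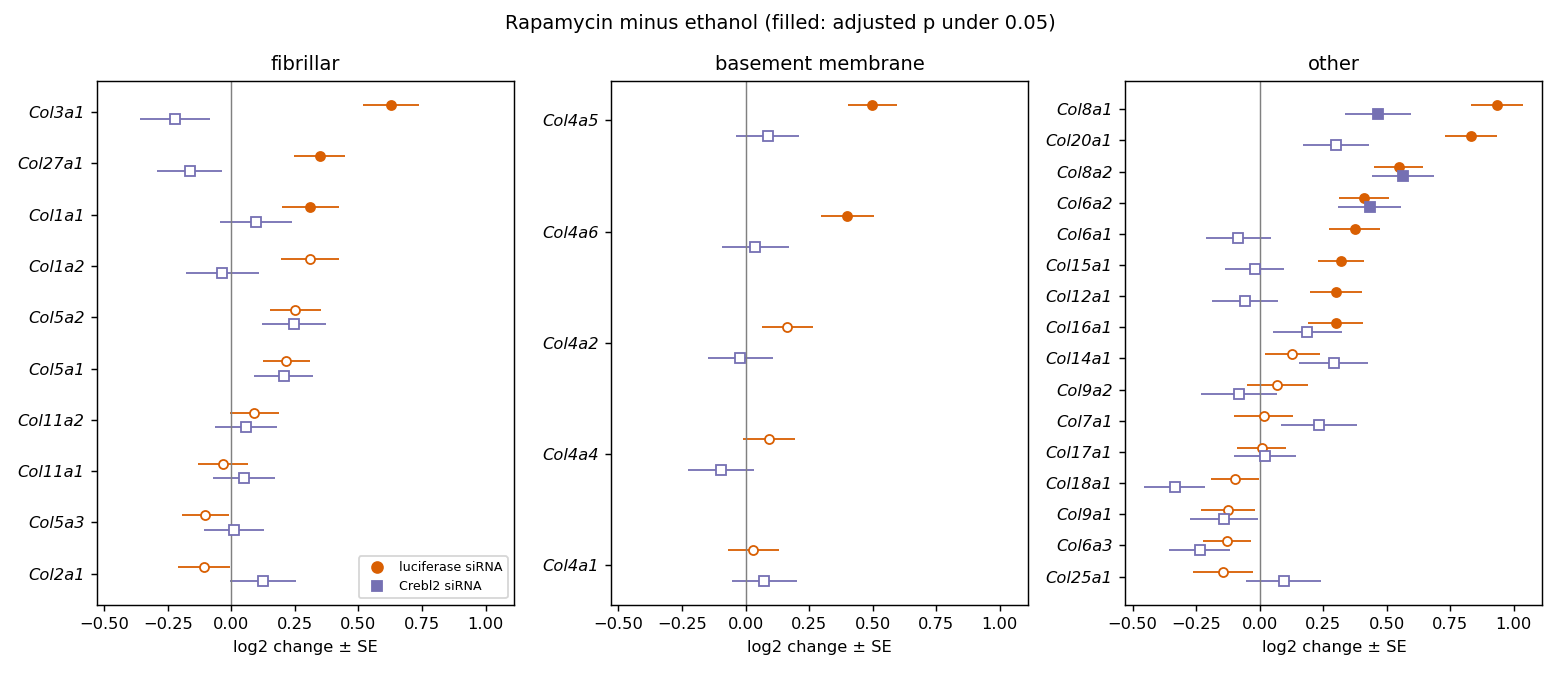
Change with rapamycin (log2, point and SE) for the 31 collagen genes tested, by family, with luciferase siRNA and with Crebl2 siRNA; filled symbols have an adjusted p under 0.05. With luciferase siRNA 13 genes are filled, all to the right of 0, and with Crebl2 siRNA 3 genes are filled.

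Col8a1 showed the highest of these changes. It stood at 9.74 and 9.94 on the luciferase/ethanol arrays and at 10.62, 10.85 and 10.86 on the luciferase/rapamycin arrays. The groups did not overlap, and the change was 0.94 (SE 0.10), or 1.91-fold, with an adjusted p of 2.31e-07. Its second probe changed by 0.72 (adjusted p = 3.15e-06). Col8a2 stood at 9.61 and 9.54 in ethanol and at 10.11, 10.05 and 10.20 in rapamycin, again without overlap. It rose by 0.55 (SE 0.10, adjusted p = 0.000146), and its second probe by 0.44 (adjusted p = 0.00944). A further, dim probe of Col8a2 changed by 0.00. Lack of overlap alone sets no gene apart, since Col4a2, Col5a1 and Col5a2, which did not pass, also showed it.

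Col20a1, a collagen of the group that associates with fibrils, was dim and rose almost as far. Its levels were 7.16 and 7.10 in ethanol and 7.78, 8.01 and 8.11 in rapamycin, so the ethanol arrays lay near background and all rapamycin arrays above them. The change was 0.83 (SE 0.10, 1.78-fold, adjusted p = 1.11e-06). Of the same group, Col12a1 rose by 0.30 (SE 0.10, adjusted p = 0.037) and Col16a1 by 0.30 (SE 0.11, adjusted p = 0.0473), while Col14a1 changed by 0.13 (adjusted p = 0.477). Col15a1, a basement membrane-associated collagen of the multiplexin group, rose by 0.32 (SE 0.09, adjusted p = 0.0111), and Col18a1 of that group changed by -0.10 (adjusted p = 0.55). Col12a1's second tested probe changed by 0.14 (adjusted p = 0.4). The call of Col12a1 was lost in 8 and that of Col16a1 in 14 of 21 other settings.

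In the basement membrane family the head-to-head pairs differed in their calls. Col4a5 stood at 10.40 and 10.35 in ethanol and at 10.78, 11.01 and 10.83 in rapamycin. It rose by 0.50 (SE 0.10, 1.41-fold, adjusted p = 0.000432), with 0.41 (adjusted p = 0.00966) at its second probe. Col4a6 stood at 8.39 and 8.10 in ethanol and at 8.56, 8.77 and 8.61 in rapamycin and rose by 0.40 (SE 0.10, adjusted p = 0.00601). Neither gene's groups overlapped. Without the second luciferase/ethanol array the call of Col4a6 was lost, and 2 further probes that passed the filter changed by 0.28 and 0.08, neither past the threshold. The remaining probe of Col4a6 was above background on 0 arrays.

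Col4a1 stood at 11.63 and 11.38 in ethanol and at 11.40, 11.63 and 11.57 in rapamycin, so that the groups overlapped. Its change of 0.03 (adjusted p = 0.888) had a 95% interval of -0.178 to 0.239. Col4a2, its partner, stood at 11.21 and 11.19 in ethanol and at 11.44, 11.31 and 11.34 in rapamycin. These groups did not overlap, but the change of 0.16 (interval -0.045 to 0.373, adjusted p = 0.289) did not pass. Col4a4 was near background and changed by 0.09 (adjusted p = 0.604). The difference in change between the 2 gene pairs was itself not tested.

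**Figure D2:**
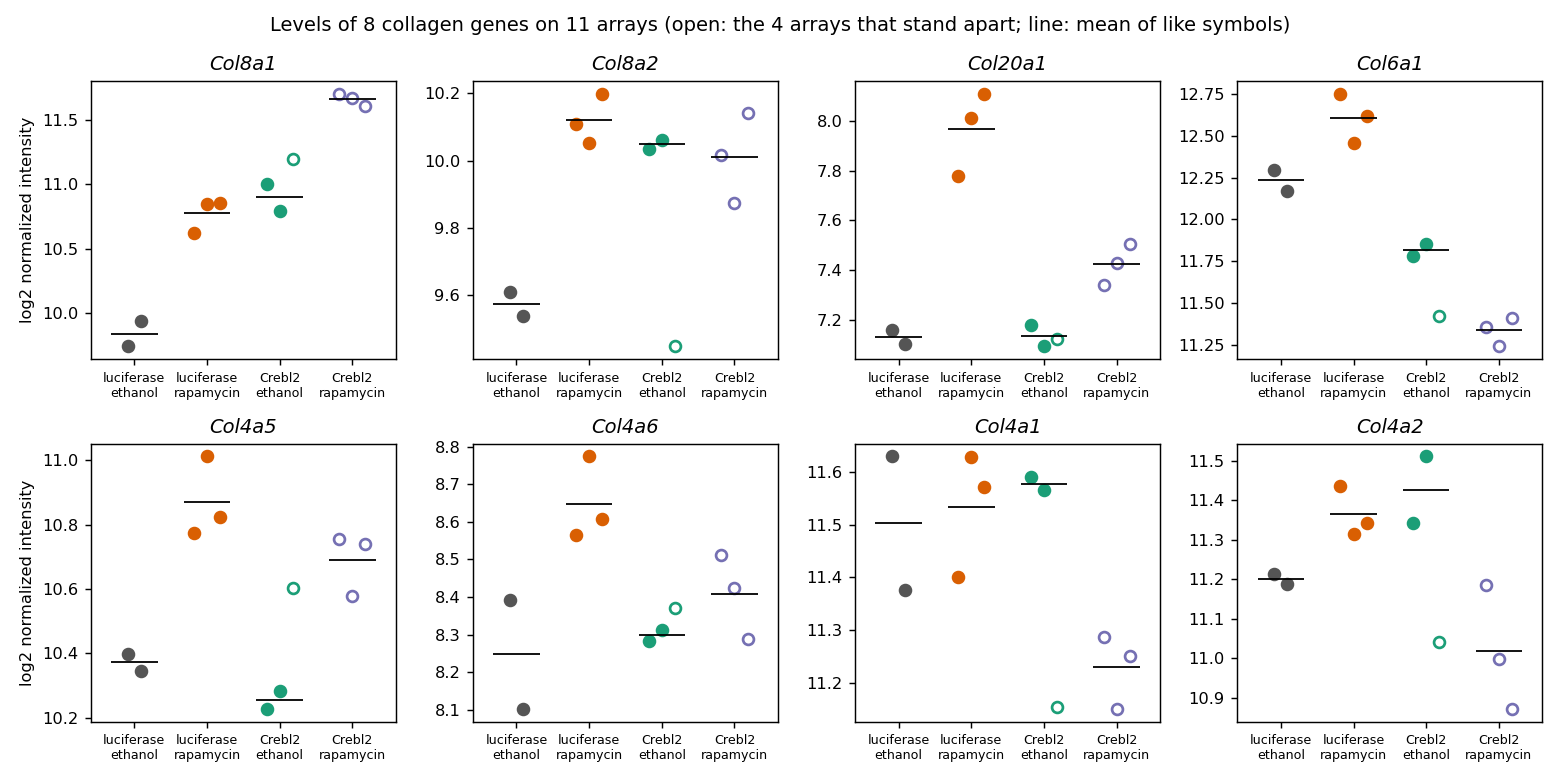
Log2 normalized intensity of 8 collagen genes on the 11 arrays, by group; open circles are the 4 arrays that stood apart, and each line is the mean of the like symbols in its group. Col8a1 lies below 10 on both luciferase/ethanol arrays and above 10.6 on all others, and Col6a1 is lowest on the 4 open arrays.

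Among the fibrillar genes, Col3a1, the chain of type III collagen, rose furthest. It stood at 8.72 and 8.79 in ethanol and at 9.61, 9.27 and 9.27 in rapamycin, with no overlap. The change was 0.63 (SE 0.11, 1.55-fold, adjusted p = 0.000106), and 0.34 (adjusted p = 0.044) at a second probe. Without the term for the 4 arrays, the same change had an adjusted p of 0.792.

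Col1a1, a chain of type I collagen, stood at 11.55 and 11.63 in ethanol and at 12.11, 11.78 and 11.83 in rapamycin. It rose by 0.31 (SE 0.11, adjusted p = 0.0488), close to the threshold, and lost its call in 13 of 21 other settings. Its partner chain Col1a2 stood at 7.75 and 7.96 in ethanol and at 8.17, 8.40 and 7.92 in rapamycin. The groups overlapped, and the change of 0.31 (SE 0.11, adjusted p = 0.054) did not pass.

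Col5a1 and Col5a2, chains of type V collagen, which seeds type I fibrils, changed by 0.22 (adjusted p = 0.1) and 0.25 (adjusted p = 0.0782). Col27a1 was not above background on either luciferase/ethanol array and was so on all 3 luciferase/rapamycin arrays. Its level with rapamycin was higher by at least 1.24-fold (adjusted p = 0.0128). A second probe of Col27a1 changed by 0.07 (adjusted p = 0.7). The other 4 fibrillar genes tested, Col2a1, Col5a3, Col11a1 and Col11a2, changed by between -0.11 and 0.09, none past the threshold.

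Col6a1 and Col6a2, chains of the beaded filament collagen type VI, also rose. Col6a1 stood at 12.30 and 12.17 in ethanol and at 12.75, 12.46 and 12.62 in rapamycin, a change of 0.37 (SE 0.10, adjusted p = 0.00757). Its other probes changed by 0.19 and 0.21, neither past the threshold. Col6a2 stood at 9.89 and 10.18 in ethanol and at 10.41, 10.48 and 10.45 in rapamycin, a change of 0.41 (SE 0.10, adjusted p = 0.00308). In neither gene did the groups overlap. A second probe of Col6a2 had the opposite sign, -0.22 (adjusted p = 0.124). Col6a3, the third chain, changed by -0.13 (adjusted p = 0.4).

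Over the genes detected on all arrays, each family's median stood above the luciferase/ethanol mean on every luciferase/rapamycin array. For the 6 fibrillar genes this median difference was 0.27, 0.24 and 0.18 on the 3 arrays. All 9917 genes detected on all arrays had median differences of -0.0074, 0.0576 and 0.0339 there.

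**Figure D3:**
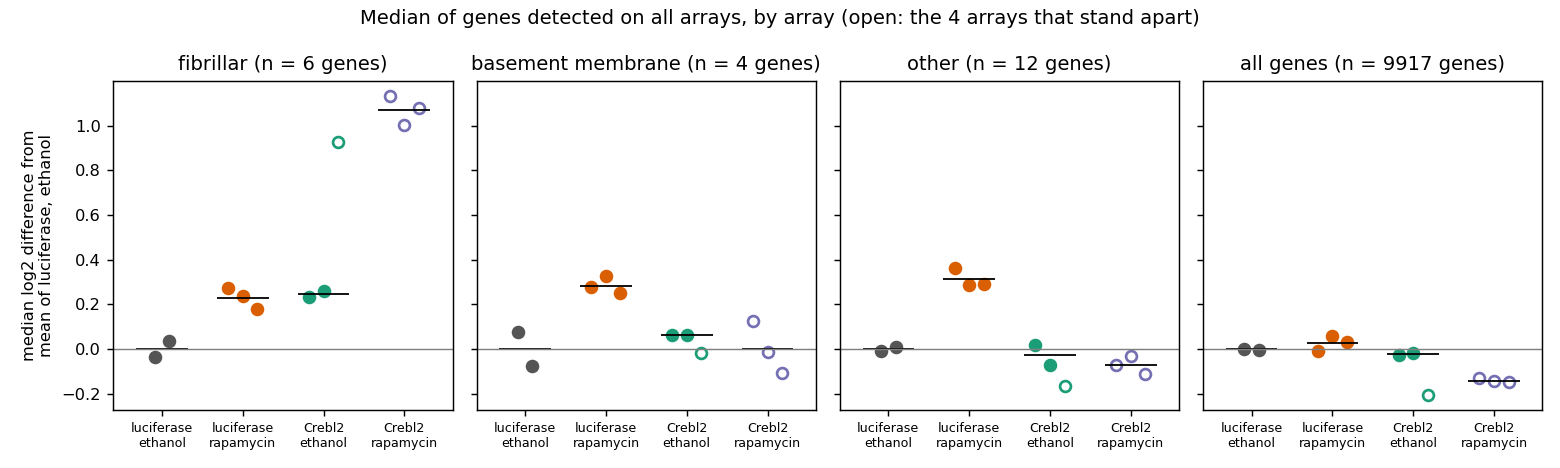
Median log2 difference from the luciferase/ethanol mean on each array, for the 6 fibrillar, 4 basement membrane and 12 other collagen genes and the 9917 genes detected on all arrays; open circles are the 4 arrays that stood apart, and each line is the mean of like symbols. The fibrillar median lies between 0.93 and 1.13 on the open arrays, where that of all genes lies between -0.20 and -0.13. The 6 fibrillar genes fall into 2 sets there: Col1a2, Col3a1 and Col5a2 lie 1.98 to 4.29 above the luciferase/ethanol mean and Col1a1, Col5a1 and Col5a3 lie below it, so the median lies between the sets and is no gene's own value.

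With the Crebl2 siRNA in ethanol, 4 collagen genes were higher and 2 lower of 31 (19.4%), against 13.1% of all genes, 5.05% higher and 8.01% lower. This comparison shares the 2 luciferase/ethanol arrays with the rapamycin comparison above, so likeness between the 2 is not a result. The higher genes were Col8a1, Col8a2, Col14a1 and Col3a1, and the lower ones Col6a1 and Col16a1. The median change was 0.00544 over the collagen genes and -0.0127 over all genes. Of the basement membrane genes 0 of 5 passed in limma, also 0 at an unadjusted p under 0.05, with changes of -0.12 to 0.23. Of the fibrillar genes only Col3a1 passed. The count was 4 without the first and 3 without the second luciferase/ethanol array, 3 without the first and 2 without the second Crebl2/ethanol array, and 3 without the term for the 4 arrays (7.39% of all genes). Col8a1 and Col8a2 passed without any 1 of those arrays.

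Col8a1 stood at 10.999 and 10.79 on the first 2 Crebl2/ethanol arrays and at 11.19 on the third. The first 2 exceeded both luciferase/ethanol arrays (9.74 and 9.94). So did the third, but it was among the arrays that stood apart and does not enter the change. The change was 1.06 (SE 0.11, 2.08-fold, adjusted p = 4.92e-07), with 0.44 (adjusted p = 0.00651) at the second probe. Col8a2 stood at 10.04 and 10.06 on the first 2 arrays, above both controls, and at 9.45 on the third, below both. It changed by 0.48 (SE 0.11, adjusted p = 0.00324) in the fit with the term and by 0.28 (adjusted p = 0.379) without it.

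Col6a1 stood at 11.78 and 11.85 on the first 2 Crebl2/ethanol arrays, below the 2 controls. The third, at 11.42, was among those that stood apart and does not enter the change. Col6a1 fell by 0.42 (SE 0.11, adjusted p = 0.0121), and a second probe by 0.52 (adjusted p = 0.00338), while the third probe changed by -0.11 (adjusted p = 0.601). Col16a1 stood at 10.87 and 10.79 on the first 2 arrays, also below both controls (11.19 and 11.45), and at 11.10 on the third. It fell by 0.48 (SE 0.12, adjusted p = 0.00627). Both genes were among those higher with rapamycin under luciferase siRNA.

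Col14a1, a fibril-associated collagen, stood at 7.57, 7.53 and 7.38 with the siRNA and at 7.34 and 6.995 without it. It rose by 0.38 (SE 0.12, adjusted p = 0.0337), and its second probe changed by 0.23 (adjusted p = 0.292). Col3a1 stood at 9.05 and 9.20 on the first 2 arrays and changed by 0.38 (SE 0.12, adjusted p = 0.0371), while its second probe changed by -0.11 (adjusted p = 0.685). Col1a1 and Col1a2 changed by 0.23 (adjusted p = 0.243) and 0.33 (adjusted p = 0.0846), Col5a1 by -0.29 (adjusted p = 0.0614) and Col5a2 by 0.27 (adjusted p = 0.11).

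**Figure D4:**
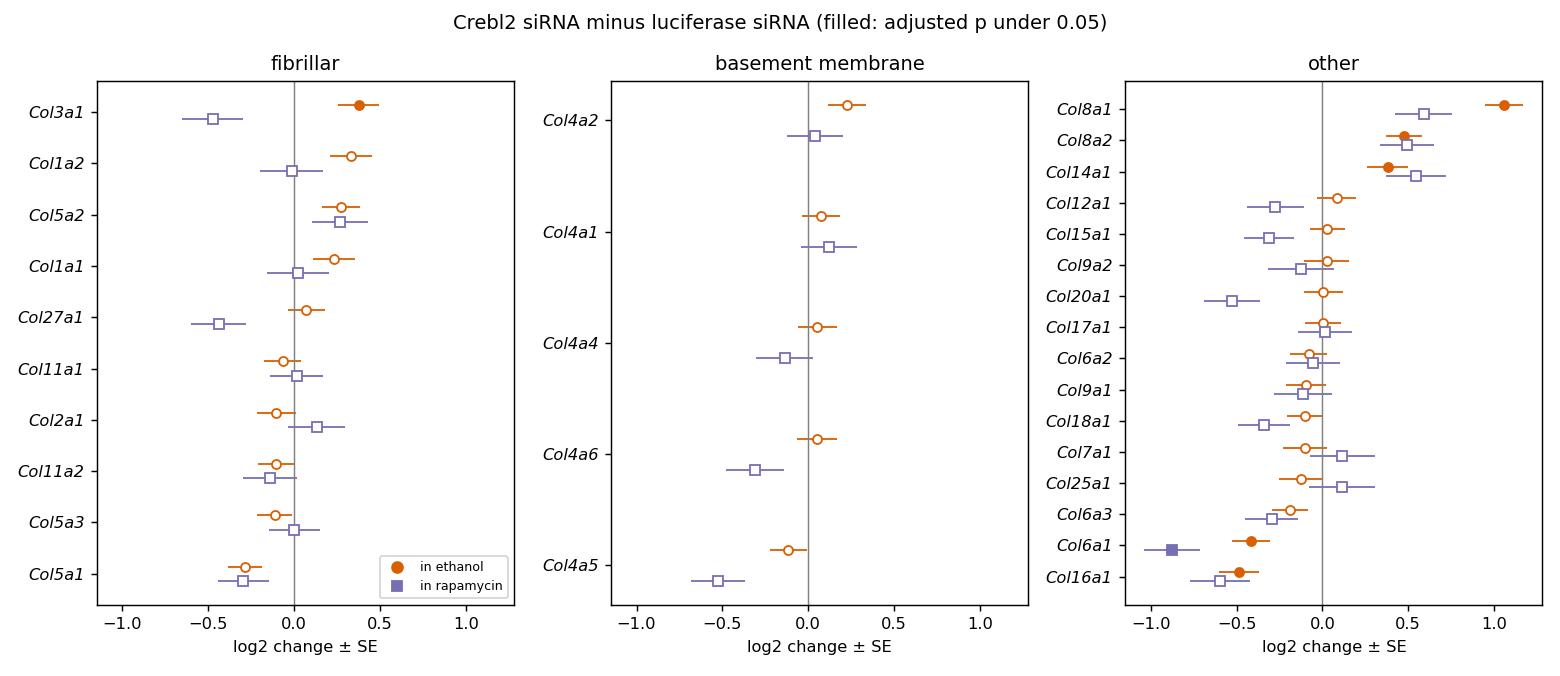
Change with the Crebl2 siRNA (log2, point and SE) for the 31 collagen genes tested, by family, in ethanol (circles) and in rapamycin (squares); filled symbols have an adjusted p under 0.05. In ethanol 6 genes are filled, with Col8a1 at 1.06 and Col16a1 at -0.48, and in rapamycin only Col6a1 is filled, at -0.87.

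With the Crebl2 siRNA, 3 of the 31 collagen genes passed as higher with rapamycin and 0 as lower (9.68%), against 7.15% of all genes, 4.48% higher and 2.67% lower. At an unadjusted p under 0.05 the counts were 5 and 1, which cannot be set against those adjusted shares. The 3 genes were Col8a1, Col8a2 and Col6a2, all of the other types. The median change was 0.0489 over the collagen genes and 0.0327 over all genes. This comparison has 1 array on the ethanol side, and that array adds nothing to the spread behind its p-values. It shares no array with the luciferase siRNA comparison. Of the 13 genes higher there, 8 had a positive change here (61.5%), as had 1700 of the 1937 genes of all kinds that were higher there (87.8%). Without the second Crebl2/rapamycin array only Col8a2 passed. Col8a1 also lost its call without the first, and Col6a2 without the third.

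Col8a1 stood at 11.19 on the third Crebl2/ethanol array and at 11.70, 11.67 and 11.61 on the Crebl2/rapamycin arrays. The change was 0.47 (SE 0.13, adjusted p = 0.0274). Col8a2 stood at 9.45 and at 10.02, 9.87 and 10.14, a change of 0.56 (SE 0.12, adjusted p = 0.0053). Col6a2 stood at 9.01 and at 9.40, 9.47 and 9.46, a change of 0.43 (SE 0.12, adjusted p = 0.0328), with -0.30 (adjusted p = 0.171) at its second probe. A second probe of Col8a1 stood at 10.96 on the lone ethanol array and at 11.27, 11.29 and 11.25 with rapamycin. That of Col8a2 stood at 7.33 and at 7.40, 7.50 and 7.59. Both gaps were narrower than at the brightest probe. With the dimmest probes none of the 3 genes kept its call. At the brightest probes of these 3 genes the rapamycin arrays all lay above the lone ethanol array. This adds no support to calls made against that array, and also held for Col5a1, Col5a2 and Col20a1, which did not pass. Without the term, all 3 ethanol arrays entered, and the changes were 0.66 (adjusted p = 0.00574) for Col8a1, 0.16 (adjusted p = 0.524) for Col8a2 and -0.20 (adjusted p = 0.592) for Col6a2. That fit called Col8a1 and Col5a2 higher and Col18a1 lower (12.2% of all genes passed).

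The head-to-head basement membrane genes did not pass with the Crebl2 siRNA. Col4a5 stood at 10.60 on the lone ethanol array and at 10.76, 10.58 and 10.74 with rapamycin, a change of 0.09 (adjusted p = 0.799). Col4a6 stood at 8.37 and at 8.51, 8.43 and 8.29, a change of 0.04 (adjusted p = 0.927). Both sets of rapamycin levels straddled the ethanol level. Col4a1 and Col4a2 changed by 0.07 (adjusted p = 0.843) and -0.02 (adjusted p = 0.959). Col20a1 stood at 7.12 and at 7.34, 7.43 and 7.50, a change of 0.30 (adjusted p = 0.186).

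In rapamycin, the Crebl2 siRNA lowered Col6a1 alone of the 31 genes (3.23%) and raised 0 in the limma fit with the term, against 2.79% of all genes, 1.12% higher and 1.67% lower. At an unadjusted p under 0.05, 3 were higher and 8 lower, counts that cannot be set against those adjusted shares. The Col6a1 call was lost in 2 of 20 other settings, normexp background correction and the dimmest probe. A further probe stood at 12.38, 12.12 and 12.13 with luciferase siRNA and at 11.53, 11.52 and 11.79 with Crebl2 siRNA. A dimmer probe stood at 7.46, 7.50 and 7.38 and at 6.96, 6.92 and 6.80. All Crebl2/rapamycin arrays are among the 4 that stood apart, so a lack of overlap in these raw levels adds no support to the call. At its brightest probe Col6a1 stood at 12.75, 12.46 and 12.62 with luciferase siRNA. With Crebl2 siRNA it stood at 11.36, 11.24 and 11.41, and the groups did not overlap. It fell by 0.87 (SE 0.16, adjusted p = 0.00313) in that fit and by 1.27 (adjusted p = 0.00017) without the term. Col8a1 changed by 0.59 (SE 0.17, adjusted p = 0.0535) with the term and by 0.89 (adjusted p = 0.00063) without. Without the term 15 collagen genes passed, 5 higher and 10 lower, where 32.9% of all genes did. Without the term, the siRNA and what sets the 4 arrays apart cannot be told apart.

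The interaction asks whether the rapamycin change differed between the siRNAs. The interaction term was past the threshold for Col3a1 alone (3.23% of the 31 genes), against 2.07% of all genes, 1.36% higher and 0.71% lower. The Col3a1 change was lower by 0.85 with the Crebl2 siRNA (SE 0.18, adjusted p = 0.00878), from 0.63 with luciferase siRNA to -0.22 with Crebl2 siRNA, and its second probe had an interaction of -0.42 (adjusted p = 0.335). Col3a1 stood at 13.04 on the third Crebl2/ethanol array and at 12.93, 12.70 and 12.83 on the Crebl2/rapamycin arrays. Without the term the interaction turned to 1.76 (adjusted p = 0.498), and no collagen gene passed in limma (0.383% of all genes). There 7 collagen genes had an unadjusted p under 0.05, a count that cannot be set against that share. Col8a1, Col6a1, Col20a1 and Col4a5 had interactions of -0.47, -0.46, -0.53 and -0.41, none past the threshold (adjusted p between 0.0948 and 0.211).

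Fibrillar collagens took the widest steps between the 4 arrays and the 7, which are described here without a test. Col1a2 lay between 11.87 and 12.05 on the 4 arrays and between 7.75 and 8.40 on the 7. Between Crebl2/ethanol arrays alone, the third stood 3.79 above the mean of the first and second, or 13.84-fold. For Col3a1 the 4 arrays lay between 12.70 and 13.04 and the 7 between 8.72 and 9.61, a step of 3.91 (15.06-fold). Its second probe lay between 7.77 and 8.03 on the 4 and between 7.65 and 8.37 on the 7, a step of 0.13. The 2 probes of Col3a1 thus disagreed on the step.

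Of Col5a2, the brightest probe stepped by 1.70 and 3 further probes by 3.61, 1.84 and 0.99, while the fifth, near background, stepped by 0.01. Col1a1, whose product pairs with that of Col1a2 in type I collagen, had the opposite sign, with a step of -0.62. Only Col1a2, Col3a1 and Col5a2 of the 31 collagen genes stepped by more than 1 in either direction, as did 789 of all genes (4.96%). Steps above 3 were found in 85 genes. The fibroblast marker S100a4 stood between 12.00 and 12.28 on the 4 arrays and between 8.92 and 10.23 on the 7. The other fibroblast markers tested did not follow it. Thy1 was lower on the 4, at 9.36 to 9.61 against 9.69 to 10.07, and Vim, Pdgfra, Pdgfrb, Fbln2 and Twist1 overlapped.

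**Figure D5:**
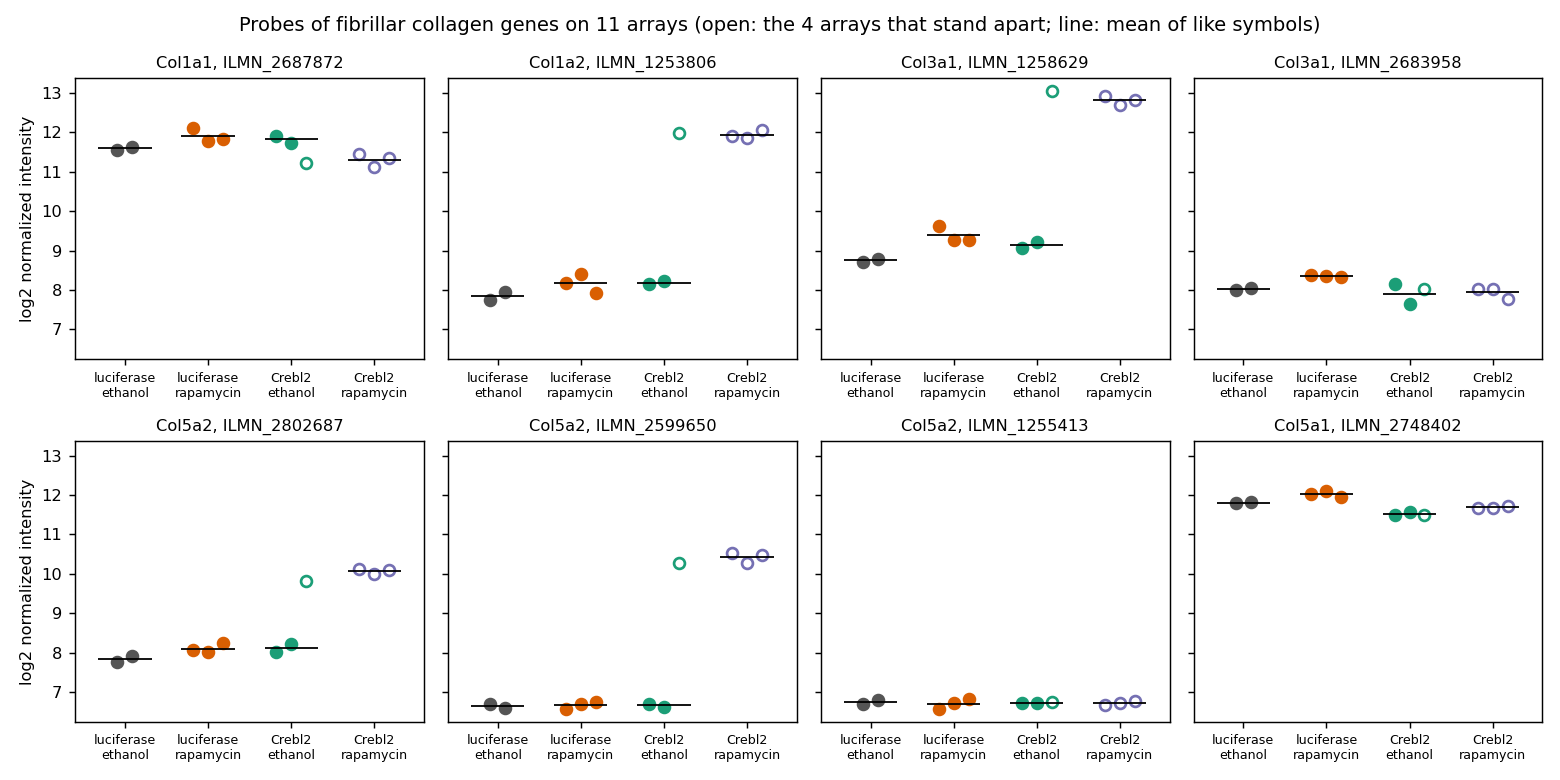
Log2 normalized intensity on the 11 arrays for selected probes of Col1a1, Col1a2, Col3a1, Col5a1 and Col5a2, with open circles for the 4 arrays that stood apart. Not every probe of Col1a1 and Col5a2 is shown. The Col1a2 probe and 1 of the 2 Col3a1 probes lie above 11.8 on the open arrays and below 9.7 on the others, whereas the second Col3a1 probe overlaps.

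Genes that modify, secrete, crosslink, break down or bind collagen were counted from 7 lists. With luciferase siRNA, rapamycin raised 25 and lowered 4 of the 69 tested, where 12.2% of all genes were higher and 10% lower. With the siRNA in ethanol 7 were higher and 8 lower, against 5.05% and 8.01% of all genes. With Crebl2 siRNA 14 were higher with rapamycin and 0 lower, against 4.48% and 2.67%. Of the fibril partners 5 of 9 rose with rapamycin under luciferase siRNA, among them Bgn (biglycan, a proteoglycan that binds fibrils) by 0.89 and Fbn1 (fibrillin) by 0.62. Of the genes for propeptide removal and crosslinking 3 of 7 rose, including Loxl1 (a lysyl oxidase, which crosslinks chains) by 0.81 and Bmp1 (which removes the C-propeptide) by 0.67. Of the basement membrane partners 5 of 12 rose, with Nid2 (nidogen, which links laminin to type IV collagen) at 0.77. Of the receptors 1 of 6 rose, Ddr1 (a collagen-binding kinase), by 0.92 (adjusted p = 6.19e-06). Of the secretion genes 2 of 6 rose, Sec24d by 0.47 and Creb3l2 by 0.31, named after their values were seen.

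Chain modification and folding split, with 5 higher and 3 lower of 17. P4ha2, a subunit of the prolyl 4-hydroxylase that stabilises the helix, stood at 12.19 and 12.00 in luciferase/ethanol and at 11.23, 11.07 and 11.19 in luciferase/rapamycin. It fell by 0.93 (adjusted p = 9.7e-08). Plod2, a lysyl hydroxylase, and Serpinh1, the collagen chaperone HSP47, fell by 0.33 and 0.31 (adjusted p = 0.0256 and 0.0208) and were named after their values were seen. Of the breakdown genes 4 rose and 1 fell of 12. Those that rose included Timp3 (an inhibitor of matrix proteases) by 0.64 and Mmp2 (a gelatinase) by 0.58. Mmp13, a collagenase, stood at 11.12 and 11.66 in luciferase/ethanol and at 10.02, 10.12 and 9.84 in luciferase/rapamycin, without overlap. It fell by 1.40 (adjusted p = 4.16e-08).

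Mmp13 also fell with the Crebl2 siRNA in ethanol, by 1.67 (adjusted p = 4.38e-08). It stood at 9.68 and 9.76, and at 9.57 on the third array, which does not enter that change. In the same comparison P4ha2 fell by 0.57, Plod3 by 0.54, P3h2 by 0.51 and Sec23a by 0.44. Ddr1 rose by 0.71, Fmod by 0.70, Fkbp14 by 0.67 and Bgn by 0.50. With Crebl2 siRNA and against the lone ethanol array, Fn1 (fibronectin) was higher with rapamycin by 0.86, Mmp2 by 0.70, Nid2 by 0.69 and Ddr1 by 0.66. That array was itself low for Fn1 (11.62 against 12.37 and 12.36 on the other Crebl2/ethanol arrays). The same held for Mmp2 (12.40 against 12.97 and 13.09) and Nid2 (8.67 against 9.35 and 9.39). For Ddr1 it lay above them (10.35 against 9.91 and 10.25). The interaction passed for Mmp13 (1.30), Plod2 (0.87), P4ha2 (0.75) and Lama1 (0.65), and the siRNA in rapamycin for Plod2 alone (1.02, adjusted p = 0.00104). Those interaction values rest on the third Crebl2/ethanol array.

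Markers of cell types moved in the same comparisons, and their part in the collagen changes was not tested. With luciferase siRNA, rapamycin raised 4 of 7 fibroblast markers, where 12.2% of all genes were higher and 10% lower. The summed intensity of the fibroblast markers was 9361 to 10113 in ethanol and 12103 to 13092 with rapamycin. The epithelial sum was 2210 to 2272 in ethanol and 3697 to 4546 with rapamycin, with Krt14 and Krt18 higher of 4 tested and Krt5 not detected. The smooth muscle sum was 19895 to 20851 in ethanol and 25552 to 27296 with rapamycin, with Acta2 and Tagln higher of 4 tested. In Crebl2/ethanol it was 27247 to 29754, with the same 2 genes higher, where 5.05% of all genes were. Acta2 made up most of the smooth muscle sums in these groups. It lay at 14.24 to 14.83 on the log2 scale, and Cnn1, Des and Tagln at 8.43 or below. The chondrocyte sum, whose list includes Col2a1 and Col9a1, was 2387 to 2621 in luciferase/ethanol and 1497 to 1671 in luciferase/rapamycin, where Sox9 fell by 0.87 (adjusted p = 1.1e-06). The other 4 chondrocyte markers tested did not pass, with changes of 0.08 for Acan, 0.01 for Comp, -0.11 for Col2a1 and -0.12 for Col9a1. The osteoblast sum was 669 to 732 and 650 to 727, the endothelial sum 765 to 777 and 746 to 757, and the macrophage sum 584 to 619 and 555 to 651, in the same order. Every marker in these last sums lay at 8.14 or below on those arrays, many of them near background. The sums are thus largely background and could show little change.

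The other comparisons also held marker changes, whose part in the collagen values was not tested either. With the Crebl2 siRNA in ethanol, Krt14 rose by 0.66, Krt18 fell by 0.47, Acta2 rose by 0.48 and Tagln by 0.93. With Crebl2 siRNA and rapamycin the differences from the lone ethanol array were 0.92 for Krt18, 0.62 for Krt14, 0.79 for Tagln, 0.56 for Vim and -0.47 for Sox9, all past the threshold. The fibroblast sum was 10245 to 12593 in Crebl2/ethanol and 13996 to 14702 in Crebl2/rapamycin, and the epithelial sum was 2171 to 2444 and 3312 to 3497. The chondrocyte sum was 1822 to 2152 and 1328 to 1565, and the smooth muscle sum in Crebl2/rapamycin was 28327 to 29232. These sums hold no term for the arrays that stood apart, which are the lone ethanol array and all Crebl2/rapamycin arrays. S100a4, a fibroblast marker, stood at 12.28 on the lone ethanol array and at 9.29 and 9.24 on the other Crebl2/ethanol arrays. On the Crebl2/rapamycin arrays it lay between 12.00 and 12.14. In these sums, rapamycin and what sets those arrays apart cannot be told apart. For the siRNA in rapamycin, S100a4 changed by -0.93 (adjusted p = 0.00672), Tagln by 1.08 (adjusted p = 0.000594) and Sp7, an osteoblast marker, by -0.53 (adjusted p = 0.05, just under the threshold before rounding). The interaction passed for S100a4 (-1.15, adjusted p = 0.00115).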

How the data were processed

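Per the labels, RNA was extracted with TRIZOL, amplified with an Illumina TotalPrep kit and detected with Cy3-streptavidin. The values used are the authors' normalized intensities, linear and with background still in them, and the deposited detection p-value of each probe on each array. How the authors normalized, and with which software, is not given in the sources used here. The non-normalized table was not used, since its probe identifiers did not belong to its values.

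The intensities were put on the log2 scale with no further normalization. A probe was kept if 2 or more arrays gave it a detection p under 0.05 (28936 of 46237). Symbols came from the platform annotation (35784 probes with 1 symbol, 0 with several, 10453 with none). The probe with the highest mean stood for its gene, and other probes are given for many of the called genes, not for every comparison. Col27a1's floor in ethanol was, per array, the higher of the lowest detected signal and its own.

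All 11 arrays entered 1 limma fit (lmFit and eBayes, limma 3.58.1, R 4.3.3, 6 residual and 18.5 prior degrees of freedom) of the 4 groups with 1 term for the 4 arrays that stand apart. Each comparison's p-values were adjusted over its 15908 genes (Benjamini-Hochberg), and adjusted values under 0.05 passed. Promoter sequences are RefSeq's (GRCm38.p6). The number of arrays limits the precision.

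Members, lists and tests were chosen with earlier results of these data known. Named were the collagen genes past the threshold in any comparison, 12 collagen genes in every case, and up to 10 partner genes per comparison by size of change. Alternatives were the fit without the term, the 7 arrays alone, other filters, normexp background correction, quantile normalization, array weights, a replicate block and each array left out; the dimmest probe in place of the brightest was chosen after seeing the data.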

Additional observations from a re-analysis of the deposited data

Results flagged for a closer look

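For Col3a1 the interaction of rapamycin and siRNA was past the threshold in the limma fit across all genes, at -0.85 on the log2 scale (SE 0.18, adjusted p = 0.00878). With luciferase siRNA all 3 rapamycin arrays lay above both ethanol arrays. With Crebl2 siRNA all 3 rapamycin arrays lay below the 1 ethanol array they were set against, which is assumed to vary like the arrays of the other groups. The value was 3.06 without that array, when the term for the 4 arrays cannot be fitted. With that array kept, its adjusted p was highest without the term, where the interaction was 1.76 (adjusted p = 0.498).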

How the results depend on the processing

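The rapamycin calls of Col8a1, Col20a1 and Col4a5 with luciferase siRNA and the siRNA call of Col8a1 in ethanol held in all 21 other settings. Counts of collagen genes are given in the order rapamycin with luciferase siRNA, the siRNA in ethanol, rapamycin with Crebl2 siRNA, the siRNA in rapamycin and the interaction (13, 6, 3, 1 and 1 in the limma fit). The 7 arrays alone gave 12 and 6 for the first 2. Without the term for the 4 arrays they were 5, 3, 3, 15 and 0. With the dimmest probe they were 7, 2, 0, 0 and 0, where 3, 6 and 5 had an unadjusted p under 0.05 in the last 3. With normexp they were 9, 2, 0, 0 and 0, where 13, 9, 5, 10 and 7 had an unadjusted p under 0.05. The share of all genes with an unadjusted p under 0.05 is not given here, so such counts show no excess or lack. The siRNA in rapamycin gave 2 with the stricter filter, 3 with quantile normalization and 2 with array weights. With 1 array left out, the counts ranged from 8 to 13, 2 to 7, 1 to 16, 1 to 18 and 1 to 13. The upper ends of the last 3 came without the third Crebl2/ethanol array, when the term cannot be fitted. The interaction also gave 3 without the first luciferase/rapamycin array.

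Signs turned for Col6a2 with rapamycin under luciferase siRNA (-0.22, dimmest probe) and for Col3a1 with the siRNA in ethanol (-0.11, dimmest probe). They also turned for Col6a2 with rapamycin under Crebl2 siRNA (-0.20 without the term, -0.52 without the third Crebl2/ethanol array, -0.30 at the dimmest probe) and for Col8a2 there (-0.04 without that array). The Col3a1 interaction turned to 1.76 without the term and 3.06 without that array. With 1 array left out, these values ranged from -0.52 to 0.46 for Col6a2, from -0.04 to 0.63 for Col8a2 and from -0.91 to 3.06 for the Col3a1 interaction. The cause was not tested.

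Same-numbered arrays had residual correlations between -0.0255 and 0.0572. The third Crebl2/ethanol array has no residual in this fit and the groups are small. These values therefore cannot tell whether the numbers mark more than a label. With the replicate number as a block, the collagen counts were 14, 6, 1, 1 and 1. Over all genes the fit passed 3532, 2077, 1137, 444 and 329. The block gave 206 for the siRNA in rapamycin and 115 for the interaction. Without the term the counts were 1606, 1176, 1946, 5231 and 61. Normexp gave 1045, 195, 10 and 5 for the last 4. With 1 array left out they ranged from 2271 to 3535, 1061 to 2259, 919 to 6202, 188 to 7080 and 142 to 4369. Quantile normalization moved the share of higher calls from 62.6% to 46.7% for rapamycin with Crebl2 siRNA. Background left in the intensities limits the changes seen in dim probes.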
